A study of Mus musculus with 5 samples.

Results

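Transfection with a control siRNA was compared with no treatment in mouse cancer-associated fibroblasts (CAFs), the fibroblasts of the tumour stroma, which make and contract its matrix. The comparison covered 13125 of the 54636 genes in the count table, those that reached 1 CPM (a count scaled to the size of its library) in at least 1 of the 2 libraries. Every gene that passed was kept, so the description below covers the whole comparison and then its named genes. There was 1 library of each condition. No difference therefore has a replicate check, and no p-value is given. A gene is called higher or lower where its ratio passed 2-fold, and each interval is an exact 95% interval that covers counting error only. Control siRNA-treated and untreated CAFs both came from patient-derived xenografts (PDX) of rectal tumours grown in female Nude mice, which lack T cells but keep other host cells. The fibroblasts are of the mouse host, without the floxed Myh9 alleles used elsewhere in the series, and had grown out of tumour pieces and been immortalized with SV40 large T antigen. The transfected cells were plated overnight in multi-well plates, given a non-targeting duplex (All Stars Negative Control, named scramble in the labels) with a cationic lipid reagent, and collected later. A mock-transfected sample with lipid but no siRNA was not analysed here. The duplex, the lipid, the plating and the days in culture therefore cannot be told apart. The untreated library is described as the line RC12bis, and the labels do not say whether the transfected libraries came from that line. A library transfected with Fn1 siRNA, against fibronectin, was made in the same way as the control siRNA library, and its values are given beside it as a further transfected sample of 1.

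Total counts were 26596351 for control siRNA, 23351433 for Fn1 siRNA and 22961620 for untreated CAFs, and 3 counts were worth 0.115, 0.135 and 0.127 CPM in those libraries. Mitochondrial genes held 0.853% of counts with control siRNA and 0.825% in untreated CAFs, and cytosolic ribosomal protein genes held 3.61% with control siRNA and 3.98% in untreated CAFs. Levels of Fn1 itself were 1282 CPM after Fn1 siRNA, 4778 CPM after control siRNA and 4129.5 CPM in untreated CAFs, so the library labelled Fn1 siRNA was the low one. Xist, the RNA of the inactive X chromosome, was counted in all 3 PDX libraries (576 CPM with Fn1 siRNA, 633 with control siRNA, 501 in untreated CAFs). The Y-linked genes Ddx3y, Uty, Kdm5d and Eif2s3y had 0 counts in each of these 3 libraries, which a count of 0 limits to the CPM values of 3 counts given above.

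The control duplex was designed to match no transcript, so what it changes is the background against which a knockdown is read. Double-stranded RNA delivered in lipid can be detected by the endosomal receptors TLR3 and TLR7 and by the cytosolic sensors RIG-I, MDA5 and PKR, which turn on interferon-stimulated genes and NF-kB. NF-kB is a dimeric transcription factor held in the cytoplasm by inhibitors of the IkB family, and it induces chemokines, cyclooxygenase 2 and its own inhibitors. Serum and growth factors act on fibroblasts through ERK and through serum response factor (SRF), which with its actin-regulated coactivators drives the immediate early and contractile genes. In CAFs, the contractile programme of smooth muscle actin marks the myofibroblastic state (myCAF), and secreted cytokines mark the inflammatory state (iCAF).

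Stretches of promoter are shown for 7 genes of these NF-kB and SRF groups, because each holds a match to the binding motif after which its group is named. They are RefSeq sequences of mouse build GRCm38.p6, each of 100 bases read 5′ to 3′ on the gene's strand and lying upstream of its start. The first 3 belong to NF-kB-linked genes that were higher with control siRNA, and the capitals mark matches to the kappa-B consensus on either strand. In Cxcl1 the capitals cover 2 overlapping matches.
Cxcl1 (chr5:90891129-90891228, plus strand): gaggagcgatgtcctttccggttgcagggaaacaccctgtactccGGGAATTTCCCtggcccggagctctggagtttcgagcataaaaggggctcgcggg
Tnfaip3 (chr10:19015411-19015510, minus strand): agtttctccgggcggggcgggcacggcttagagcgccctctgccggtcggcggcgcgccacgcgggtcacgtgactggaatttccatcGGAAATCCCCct
Nfkbia (chr12:55492648-55492747, minus strand): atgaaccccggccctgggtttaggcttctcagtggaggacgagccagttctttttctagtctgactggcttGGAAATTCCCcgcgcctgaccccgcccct
In the other 4, of contractile, actin-linked and immediate early genes, the capitals mark CArG boxes, the SRF motif.
Myl9 (chr2:156775258-156775357, plus strand): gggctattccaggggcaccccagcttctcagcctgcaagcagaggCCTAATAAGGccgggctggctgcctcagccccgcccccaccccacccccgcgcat
Fhl1 (chrX:56779536-56779635, plus strand): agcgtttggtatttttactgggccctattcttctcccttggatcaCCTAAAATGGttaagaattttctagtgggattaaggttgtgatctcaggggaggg
Egr2 (chr10:67537752-67537851, plus strand): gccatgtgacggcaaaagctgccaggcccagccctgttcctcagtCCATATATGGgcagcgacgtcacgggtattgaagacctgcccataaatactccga
Srf (chr17:46556180-46556279, minus strand): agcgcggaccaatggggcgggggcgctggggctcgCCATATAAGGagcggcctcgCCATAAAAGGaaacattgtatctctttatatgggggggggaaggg
Over the window from 250 bases before to 50 after a start, the kappa-B consensus was found in 9.55% of 27025 genes and the CArG box in 1.81%. The kappa-B consensus was found in 8 of the 14 NF-kB feedback genes with a promoter in the table and in 4 of the 11 matched CXC chemokines. Of these, Cxcl1, Tnfaip3, Nfkbia and Nfkbid were higher. Cyld (log2 ratio 0.00), Tnip1 (-0.14), Bcl3 (-0.11), Nfkbie (0.62) and Cxcl10 (0.32) stayed within 2-fold, and Cxcl2, Cxcl3 and Tnip3 did not reach 1 CPM. Among CC chemokines and colony stimulating factors with a match, Ccl20 and Csf1 were higher, Ccl27a (-0.53) stayed within 2-fold and Ccl9 (-1.06) was lower. The CArG box was found in 8 of the 18 matched SRF and actin cytoskeleton genes, in 2 of the 19 matched immediate early genes (Egr2 and Zfp36) and in 1 of the 11 matched contractile genes (Myl9). The consensus sterol regulatory element, searched on both strands, was found in 0.27% of all genes and in 0 of the 19 matched cholesterol genes. A match describes letters in a window, and binding was not measured.

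Over all 13125 genes, 391 were over 2-fold higher with control siRNA than in untreated CAFs (2.98%) and 359 were over 2-fold lower (2.74%). Every list count below is to be read beside these shares. Most genes moved little, since 78.6% had a log2 ratio within 0.5 of 0, and the median was -0.01. Scaling by library totals in place of trimmed means turned the split to 321 higher and 457 lower and moved the median of all genes to -0.09. With trimmed means, 5.71% of genes lay beyond 2-fold, higher or lower, so a short list with none beyond it does not stand apart by that count. Changes over 4-fold were fewer, at 68 genes higher and 37 lower. Counting error was large at the low end. At 10 CPM or more in either library, 145 of 9564 genes were higher (1.52%) and 114 lower (1.19%), while under 3 CPM on average 20.6% of genes lay beyond 2-fold. The whole interval lay beyond 2-fold for 172 of the 391 higher genes and 111 of the 359 lower ones. Passing the filter through 1 library alone forces a difference, and 340 genes reached 1 CPM only with control siRNA, 160 of them among the 391, while 328 did so only in untreated CAFs, 135 of them among the 359. The 3 genes just inside the higher threshold had log2 ratios of 1.0003 (Csrp1), 1.0010 (Tpm1) and 1.0026 (Gm45719), and the 3 just outside had 0.9974 (Pvr), 0.9968 (Col11a2) and 0.9951 (Cish). Just inside the lower threshold lay Mt1 at -1.0004, Nov at -1.0024 and Sgsm1 at -1.0026, and just outside it Gm21378 at -0.9999, Cdc42ep2 at -0.9988 and Dact2 at -0.9988.

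**Figure D1:**
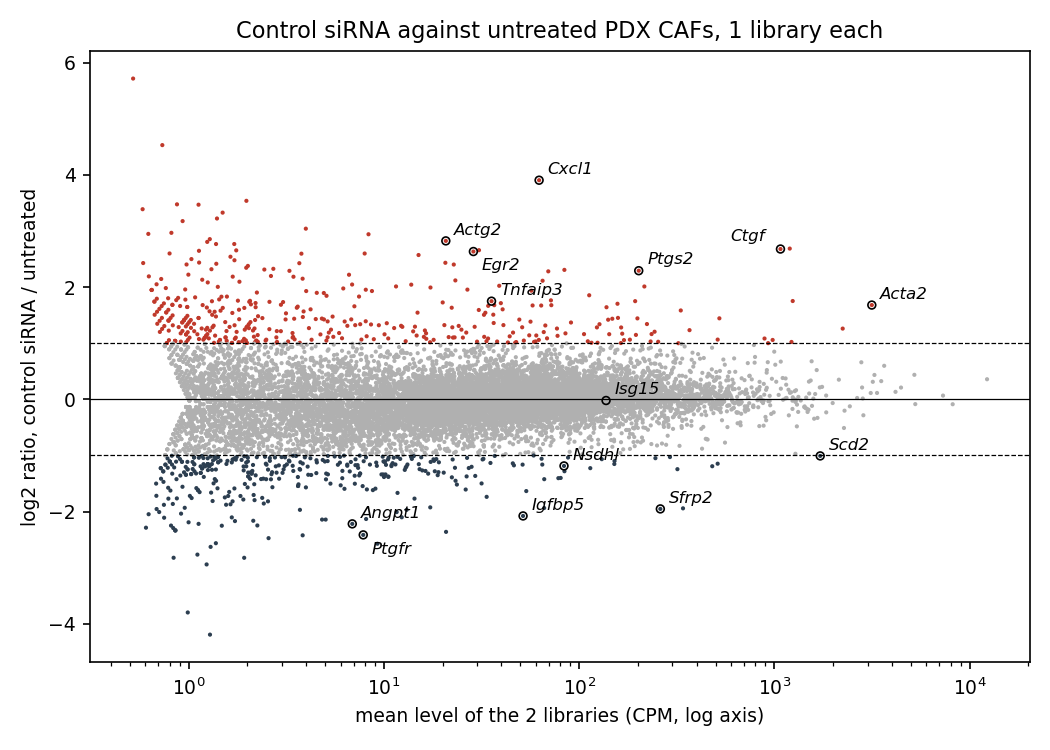
Log2 ratio of control siRNA to untreated PDX CAFs (y axis) against the mean level of the 2 libraries in CPM (x axis, log scale), 1 point per gene, 13125 genes, 1 library each. Red points are over 2-fold higher (391), dark points over 2-fold lower (359) and grey points lie between the dashed 2-fold lines; the spread is widest under 3 CPM, and Cxcl1 stands above genes of like level.

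Among genes of inflammation, several chemokines, cyclooxygenase 2 and inhibitors of NF-kB were over 2-fold higher, while receptors of interleukin 1 and TNF stayed within 2-fold. The neutrophil chemokine Cxcl1 had 117 CPM after control siRNA, 151 CPM after Fn1 siRNA and 7.79 CPM in untreated CAFs, a log2 ratio of 3.90 (95% interval 3.69 to 4.13), or 15.0-fold, for control siRNA over untreated. Both transfected libraries were far above the untreated one, and Cxcl1 had the largest ratio of any protein-coding gene at 10 CPM or more. Its relative Cxcl5 had 20.5 CPM with control siRNA and 8.34 CPM in untreated CAFs (log2 ratio 1.29, 95% interval 1.06 to 1.54). The homeostatic chemokine Cxcl12 stayed close, with 56.3 CPM with control siRNA and 47.5 CPM in untreated CAFs (log2 ratio 0.24), as did the interferon-induced Cxcl10 with 11.2 CPM with control siRNA and 8.94 CPM in untreated CAFs (log2 ratio 0.32). Of the 15 CXC chemokines listed, 6 were measured, 2 were higher and 0 lower, with a median of 0.28 beside -0.01 over all genes. Cxcl2, which acts on the same receptor as Cxcl1, stayed under 1 CPM, at 14 counts with control siRNA and 0 in untreated CAFs.

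Among CC chemokines and colony stimulating factors, the monocyte attractant Ccl2 had 230.2 CPM with control siRNA and 102 CPM in untreated CAFs (log2 ratio 1.17, 95% interval 1.10 to 1.24). The macrophage growth factor Csf1 had 1640.3 CPM with control siRNA and 807 CPM in untreated CAFs (log2 ratio 1.02, 95% interval 0.998 to 1.05). Ccl7, a neighbour of Ccl2 in the same gene cluster, had 185 CPM with control siRNA and 149 CPM in untreated CAFs and a log2 ratio of only 0.31. Ccl20, a ligand of Ccr6, had 27 counts with control siRNA and 0 in untreated CAFs, at least 8.17-fold higher when the untreated library is set at a floor of 3 counts. It was the only compared gene with 0 counts in either library. Lower were Ccl9 (7.85 CPM with control siRNA and 16.4 CPM in untreated CAFs, log2 ratio -1.06) and the weakly counted Ccl8 (0.539 CPM with control siRNA and 1.65 CPM untreated, log2 ratio -1.58). In all, 3 of 10 measured members were higher and 2 lower, with a median of 0.23.

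Among genes of NF-kB feedback, A20 and 4 others were over 2-fold higher. Tnfaip3, which encodes the ubiquitin-editing inhibitor A20, had 54.9 CPM after control siRNA, 51.9 CPM after Fn1 siRNA and 16.3 CPM in untreated CAFs (log2 ratio 1.75, 95% interval 1.59 to 1.92 for control siRNA over untreated). Zc3h12a, whose RNase product degrades cytokine mRNAs, had 33.7 CPM with control siRNA and 10.8 CPM in untreated CAFs (log2 ratio 1.63, 95% interval 1.43 to 1.84). The nuclear IkB protein gene Nfkbiz had 61.0 CPM with control siRNA and 20.1 CPM in untreated CAFs (log2 ratio 1.60, 95% interval 1.46 to 1.76). Nfkbia, which encodes IkB-alpha, had 91.8 CPM with control siRNA and 40.0 CPM in untreated CAFs (log2 ratio 1.20, 95% interval 1.09 to 1.31). With Nfkbid, at 2.65 CPM with control siRNA and 1.31 CPM untreated (log2 ratio 1.004), 5 of 13 measured feedback genes were higher and 0 lower. Their median was 0.31 and became 0.00 among members at 10 CPM or more. The deubiquitinase gene Cyld was level, with 90.5 CPM with control siRNA and 90.7 CPM in untreated CAFs (log2 ratio 0.00). Of the 5 subunits, Relb alone passed 2-fold, at 40.3 CPM with control siRNA and 19.7 CPM in untreated CAFs (log2 ratio 1.03, 95% interval 0.87 to 1.19), while Rela (log2 ratio 0.16), Nfkb1 (0.09) and Nfkb2 (0.29) did not.

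Further NF-kB-linked genes split in the same way. Ier3, a survival gene that also responds to ERK, had 115 CPM with control siRNA and 23.7 CPM in untreated CAFs (log2 ratio 2.28, 95% interval 2.15 to 2.41). The gelatinase gene Mmp9 had 6.27 CPM with control siRNA and 1.40 CPM in untreated CAFs (log2 ratio 2.15, 95% interval 1.62 to 2.75). Vcam1, an adhesion molecule for leukocytes, had 124 CPM with control siRNA and 104 CPM in untreated CAFs (log2 ratio 0.25), and the mitochondrial superoxide dismutase gene Sod2 had a log2 ratio of 0.01. Neither passed 2-fold. Of 13 measured genes of interleukin 1 and TNF signalling, 0 were higher and 1 was lower, with a median of -0.11. The lower one was the interleukin 1 receptor antagonist Il1rn, at 1.19 CPM with control siRNA and 6.48 CPM in untreated CAFs (log2 ratio -2.42, 95% interval -3.05 to -1.88). The TNF receptor gene Tnfrsf1a had 207 CPM with control siRNA and 228 CPM in untreated CAFs (log2 ratio -0.14), the interleukin 1 receptor gene Il1r1 96.5 CPM with control siRNA and 94.3 CPM untreated (log2 ratio 0.03), and the interleukin 33 receptor gene Il1rl1 181 CPM with control siRNA and 320.1 CPM untreated (log2 ratio -0.82).

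In the IL-6 family, Lif, a cytokine that maintains the inflammatory state in CAFs, had 10.9 CPM with control siRNA and 2.33 CPM in untreated CAFs (log2 ratio 2.22, 95% interval 1.81 to 2.67). Il6 was low in every PDX library, at 2.46 CPM after control siRNA, 2.84 CPM after Fn1 siRNA and 0.974 CPM in untreated CAFs, with a log2 ratio of 1.32 and an interval of 0.63 to 2.09. The cytokine gene Clcf1 had 96.1 CPM with control siRNA and 55.0 CPM in untreated CAFs (log2 ratio 0.80). The family's shared receptor Il6st was level, at 341 CPM with control siRNA and 355 CPM in untreated CAFs (log2 ratio -0.06), and 3 of 12 measured members were higher and 0 lower. In the prostaglandin pathway the inducible cyclooxygenase Ptgs2 had 335 CPM after control siRNA, 337 CPM after Fn1 siRNA and 68.5 CPM in untreated CAFs (log2 ratio 2.29, 95% interval 2.22 to 2.37). The constitutive enzyme Ptgs1 had 237 CPM with control siRNA and 264 CPM in untreated CAFs (log2 ratio -0.16). The phospholipase gene Pla2g4a, which frees arachidonic acid, had 72.0 CPM with control siRNA and 58.8 CPM in untreated CAFs (log2 ratio 0.29). Ptgfr, the receptor for prostaglandin F2-alpha, was lower, at 2.46 CPM with control siRNA and 13.2 CPM in untreated CAFs (log2 ratio -2.41, 95% interval -2.84 to -2.03). The other 12 of 14 measured genes of the pathway stayed within 2-fold. The list thus held 7.14% higher and 7.14% lower, beside 2.98% higher and 2.74% lower over all genes. Complement genes included C4b at 11.7 CPM with control siRNA and 3.26 CPM in untreated CAFs (log2 ratio 1.83, 95% interval 1.47 to 2.22) and C3 at 3.19 CPM with control siRNA and 0.974 CPM untreated (log2 ratio 1.69), both of which feed the complement cascade, and the complement inhibitor Cd59a at 20.2 CPM with control siRNA and 9.19 CPM untreated (log2 ratio 1.14). The inhibitor Cd55 was lower, at 0.385 CPM with control siRNA and 1.19 CPM untreated (log2 ratio -1.57). The pattern recognition gene Ptx3 had 268 CPM with control siRNA and 182 CPM untreated (log2 ratio 0.56).

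Genes of the response to foreign RNA stayed largely within 2-fold, as did most genes, since 2.98% of all genes were higher and 2.74% lower. Of 30 measured interferon-stimulated genes, 0 were over 2-fold higher and 1 was lower, with a median log2 ratio of -0.08 and a range of -1.19 to 0.86. Isg15, a ubiquitin-like protein, had 136 CPM after control siRNA, 137 CPM after Fn1 siRNA and 138 CPM in untreated CAFs (log2 ratio -0.02 for control siRNA over untreated). The RNA-binding protein gene Ifit1 had 43.9 CPM after control siRNA, 45.4 CPM after Fn1 siRNA and 60.6 CPM in untreated CAFs (log2 ratio -0.46), the tetherin gene Bst2 had 282 CPM with control siRNA and 212 CPM in untreated CAFs (log2 ratio 0.41) and Oasl2 had 113 CPM with control siRNA and 110.1 CPM in untreated CAFs (log2 ratio 0.03). Stat2, a subunit of the interferon-activated factor ISGF3, had 87.5 CPM with control siRNA and 144 CPM in untreated CAFs (log2 ratio -0.72). The largest ratios in the list were those of Oas2 (0.86) and Oas3 (0.82), which encode sensors that activate RNase L, and the only gene beyond 2-fold was the weakly counted Mx1 (0.769 CPM with control siRNA and 1.78 CPM untreated, log2 ratio -1.19).

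The sensors themselves were nearly level. Ddx58, which encodes RIG-I, had 162 CPM with control siRNA and 175 CPM in untreated CAFs (log2 ratio -0.11). Eif2ak2, which encodes PKR, had 133 CPM with control siRNA and 149.7 CPM in untreated CAFs (log2 ratio -0.17). Log2 ratios were 0.04 for Ifih1, which encodes MDA5, and -0.23 for Tlr3. Tlr7, at 0.385 CPM with control siRNA and 1.52 CPM untreated (10 counts against 36), was the only one of 12 measured sensors beyond 2-fold (log2 ratio -1.93). Class I antigen presentation genes, which interferon also induces, held 1 gene beyond 2-fold. H2-D1, which encodes a class I heavy chain, had 1324 CPM with control siRNA and 636 CPM in untreated CAFs (log2 ratio 1.06, 95% interval 1.03 to 1.09), its relative H2-K1 468 CPM with control siRNA and 287 CPM untreated (log2 ratio 0.71), and the light chain gene B2m 776 CPM with control siRNA and 468 CPM untreated (log2 ratio 0.73). The transporter genes Tap1 and Tap2 had log2 ratios of 0.12 and -0.17. H2-D1 and H2-K1 are near-identical in parts, and the sources used here do not say how shared reads were assigned.

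The machinery that loads and uses an siRNA was within 2-fold in all its listed genes, as were most genes (5.71% of all lay beyond it). Ago2, the slicing Argonaute, had 218 CPM with control siRNA and 171 CPM in untreated CAFs (log2 ratio 0.35). Xpo5, which exports microRNA precursors, had 165 CPM with control siRNA and 123 CPM in untreated CAFs (log2 ratio 0.42). All 13 listed genes lay between -0.46 (Tnrc6b) and 0.42 (Xpo5), with a median of 0.11. Lysosome and endosome genes, whose products receive lipid complexes after uptake, were also within 2-fold, all 29 measured ones, with a median of 0.00. Lamp1, a lysosomal membrane protein, had 820.5 CPM with control siRNA and 708 CPM in untreated CAFs (log2 ratio 0.21), and the saposin precursor gene Psap 1251 CPM with control siRNA and 1111 CPM untreated (log2 ratio 0.17).

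**Figure D2:**
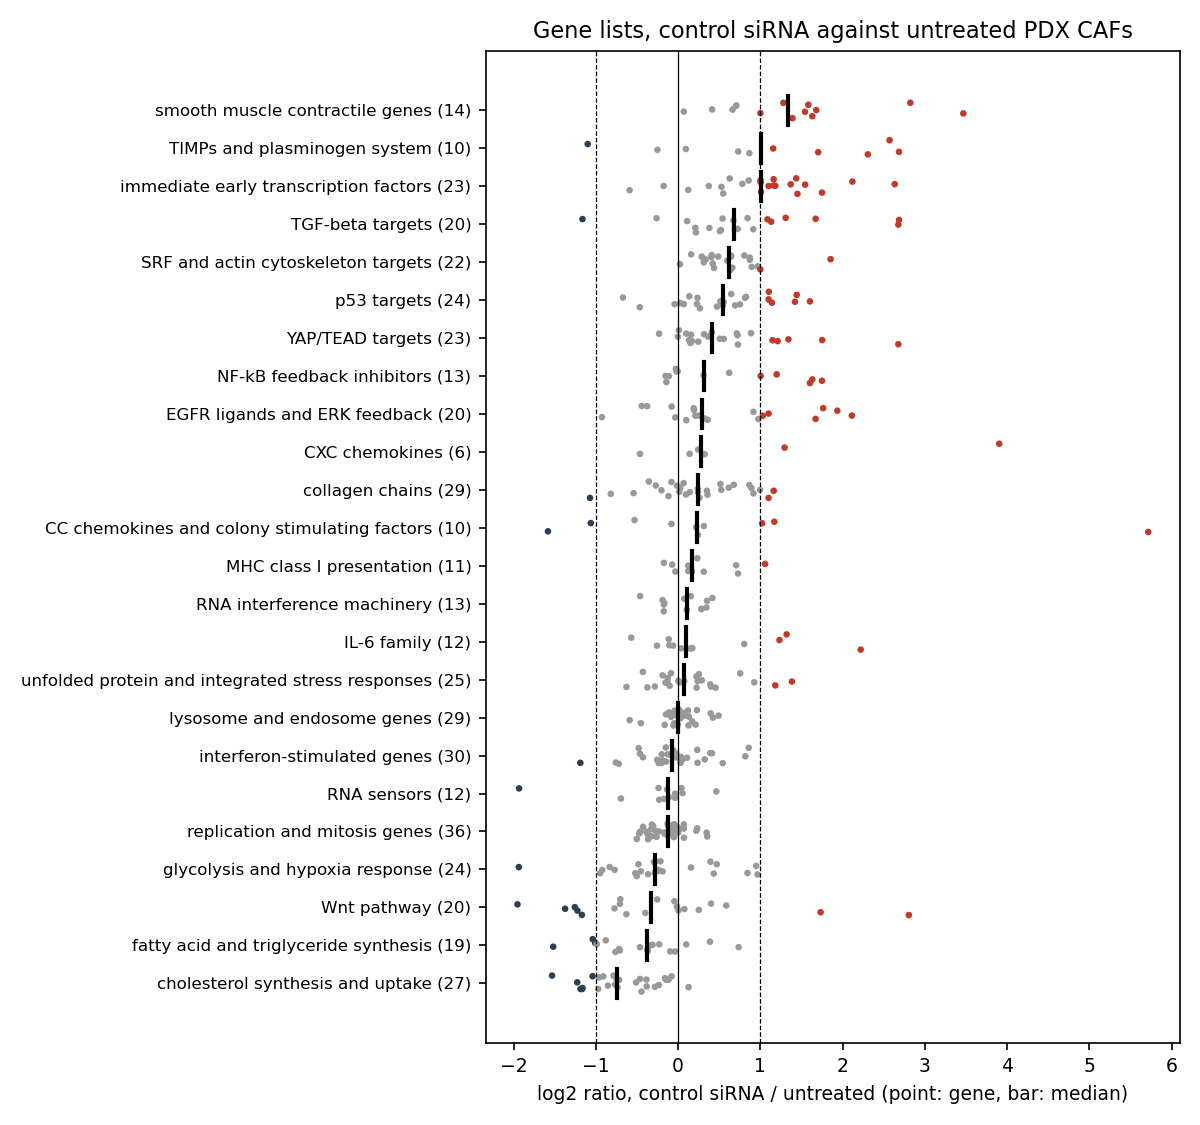
Log2 ratio of control siRNA to untreated PDX CAFs (x axis) for the measured members of 24 gene lists (rows, number measured in brackets), ordered by median; points are genes, vertical bars are list medians, red and dark points lie beyond 2-fold. Of these lists, contractile genes have the highest median (1.34) and cholesterol genes the lowest (-0.74), while interferon-stimulated genes centre at -0.08.

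Immediate early genes are switched on within minutes of a stimulus without new protein synthesis. Of 23 measured members, 14 were over 2-fold higher and 0 lower, with a median of 1.01. Over all genes, 2.98% were higher and 2.74% lower. Egr2, a zinc finger factor, had 49.5 CPM after control siRNA, 43.2 CPM after Fn1 siRNA and 7.96 CPM in untreated CAFs (log2 ratio 2.63, 95% interval 2.41 to 2.86 for control siRNA over untreated). Its relatives were also higher, with Egr3 at 37.8 CPM with control siRNA and 8.68 CPM in untreated CAFs (log2 ratio 2.12, 95% interval 1.90 to 2.35) and Egr1 at 298 CPM after control siRNA, 251 CPM after Fn1 siRNA and 88.8 CPM in untreated CAFs (log2 ratio 1.75, 95% interval 1.68 to 1.82). The growth-promoting factor Myc had 232 CPM after control siRNA, 226 CPM after Fn1 siRNA and 84.7 CPM in untreated CAFs (log2 ratio 1.45, 95% interval 1.38 to 1.53). Among genes of the AP-1 complex, Junb had 216 CPM with control siRNA and 79.8 CPM in untreated CAFs (log2 ratio 1.44), Jun 166 CPM with control siRNA and 82.5 CPM in untreated CAFs (log2 ratio 1.01) and Fosl1 197 CPM with control siRNA and 88.1 CPM in untreated CAFs (log2 ratio 1.16), although other genes overlap 57.2% of the exon bases of Fosl1. Fos itself had a log2 ratio of 0.63, Jund of -0.18 and Fosl2 of 0.12, so AP-1 genes did not move together. Ier2 (1.37), Nr4a1 (1.54), Atf3 (1.18), Ier5 (1.16), Btg2 (1.10), Fosb (1.004) and Klf6 (1.003) were the others past 2-fold.

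Ligands of the EGF receptor and the inhibitors that ERK induces against itself passed 2-fold in part. Ereg, which encodes epiregulin, had 106 CPM after control siRNA, 83.8 CPM after Fn1 siRNA and 24.4 CPM in untreated CAFs (log2 ratio 2.11, 95% interval 1.98 to 2.25). Hbegf, a heparin-binding ligand of the same receptor, had 111 CPM with control siRNA and 32.6 CPM in untreated CAFs (log2 ratio 1.76, 95% interval 1.65 to 1.88). Other measured ligands of that receptor stayed within 2-fold, with log2 ratios of 0.36 for Egf, -0.03 for Btc and -0.38 for Tgfa. The related growth factor gene Nrg1 had 0.10, and Egfr itself 0.19. The ERK phosphatase genes Dusp5 and Dusp6 had 90.3 CPM with control siRNA and 23.6 CPM untreated (log2 ratio 1.94) and 34.6 CPM with control siRNA and 16.1 CPM untreated (log2 ratio 1.10). Dusp4, of the same family, had 119 CPM with control siRNA and 63.1 CPM untreated and stayed just within 2-fold (log2 ratio 0.92). Spry2, an inhibitor of receptor tyrosine kinase signals, had 51.0 CPM with control siRNA and 24.984 CPM untreated (log2 ratio 1.03, 95% interval 0.89 to 1.17), and Phlda1 97.3 CPM with control siRNA and 30.5 CPM untreated (log2 ratio 1.67), with 33.0% of its exon bases overlapped by another gene. In all, 6 of 20 were higher and 0 lower, with a median of 0.29.

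Other secreted growth factors went both ways, 7 higher and 5 lower of 26 measured, beside 2.98% higher and 2.74% lower over all genes. Inhba, whose product forms activin A, had 346 CPM after control siRNA, 352 CPM after Fn1 siRNA and 85.8 CPM in untreated CAFs (log2 ratio 2.01, 95% interval 1.94 to 2.08). At lower levels, Fgf2 had 12.3 CPM with control siRNA and 4.87 CPM untreated (log2 ratio 1.33) and the stress-induced hormone gene Fgf21 5.65 CPM with control siRNA and 2.03 CPM untreated (log2 ratio 1.47). Fgf18 (2.60), Fgf1 (1.51) and Gdnf (1.28) also passed 2-fold at under 2 CPM in both libraries. Lower were Angpt1, a ligand of the endothelial receptor Tie2, at 2.42 CPM after control siRNA, 2.66 CPM after Fn1 siRNA and 11.3 CPM in untreated CAFs (log2 ratio -2.22, 95% interval -2.65 to -1.83), Igf1 at 2.73 CPM with control siRNA and 7.37 CPM in untreated CAFs (log2 ratio -1.43, 95% interval -1.85 to -1.03) and Pdgfd at 2.77 CPM with control siRNA and 7.88 CPM in untreated CAFs (log2 ratio -1.501, 95% interval -1.92 to -1.11). Fgf10, a ligand for epithelial cells, had 7.73 CPM with control siRNA and 15.8 CPM in untreated CAFs (log2 ratio -1.03), and Bmp4 1.69 CPM with control siRNA and 3.51 CPM untreated (log2 ratio -1.05). Vegfa, the main angiogenic factor, stayed just within 2-fold at 194 CPM with control siRNA and 100.4 CPM in untreated CAFs (log2 ratio 0.95). Fgf7 was level at 81.1 CPM with control siRNA and 85.0 CPM untreated (log2 ratio -0.07).

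**Figure D3:**
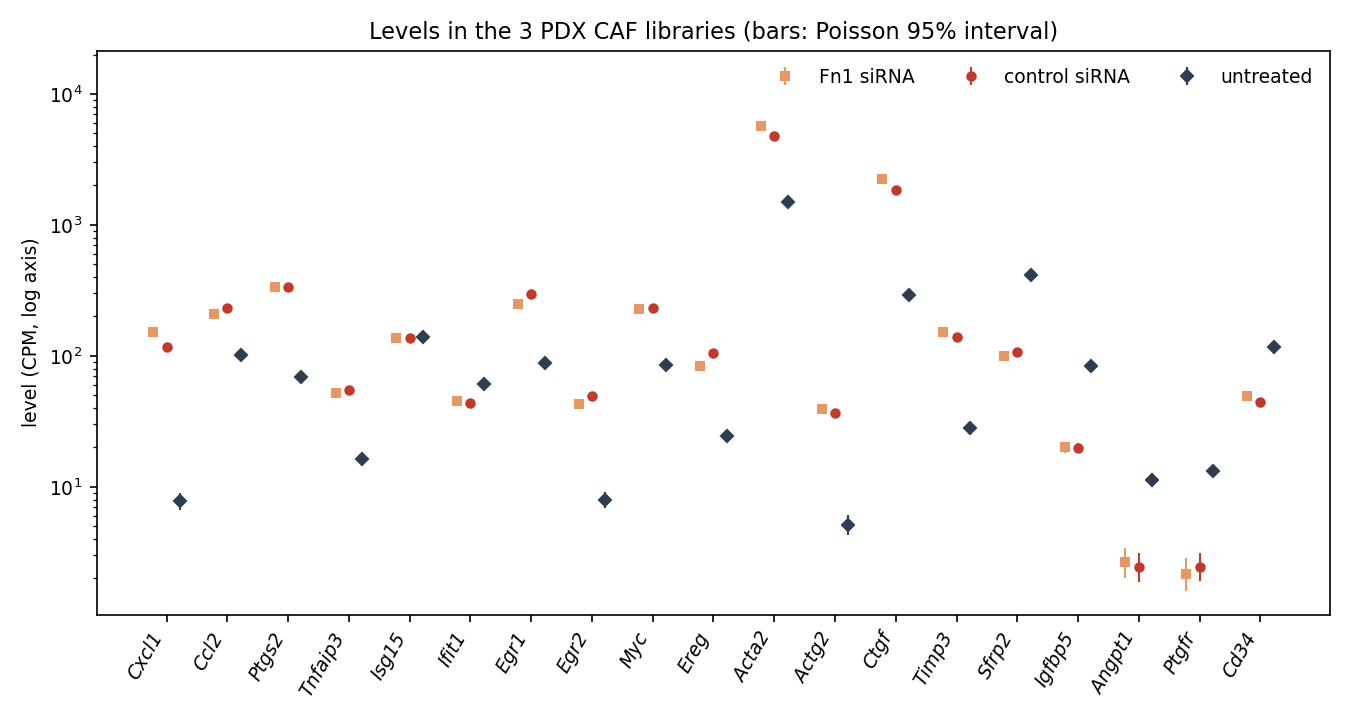
Levels in CPM (y axis, log scale) of 19 genes in the Fn1 siRNA, control siRNA and untreated PDX CAF libraries, 1 library each, with Poisson 95% intervals from the counts as bars (hidden by the symbols where small). The transfected libraries lie close together and apart from the untreated one for every gene shown except Isg15, where all 3 are level (136 CPM with control siRNA, 138 CPM in untreated CAFs), and Ifit1, where the gap is small.

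The contractile genes of smooth muscle had the highest median of the 24 lists plotted by median, 1.34. Of 14 measured members, 9 were over 2-fold higher, beside 2.98% of all genes, and all 14 lay above 0. Acta2, alpha smooth muscle actin, had 4811 CPM after control siRNA, 5646 CPM after Fn1 siRNA and 1501 CPM in untreated CAFs (log2 ratio 1.68, 95% interval 1.66 to 1.70 for control siRNA over untreated). Actg2, the gamma smooth muscle actin gene, had 36.4 CPM with control siRNA and 5.12 CPM in untreated CAFs (log2 ratio 2.82, 95% interval 2.55 to 3.11). Smooth muscle myosin genes were higher too, the light chain gene Myl9 at 497 CPM with control siRNA and 166 CPM in untreated CAFs (log2 ratio 1.58, 95% interval 1.53 to 1.64) and the heavy chain gene Myh11 at 2.08 CPM with control siRNA and 0.169 CPM untreated (54 counts against 4, log2 ratio 3.47, interval 2.18 to 5.54). The actin-binding genes Cnn1 (233 CPM with control siRNA and 95.7 CPM untreated, log2 ratio 1.28), Lmod1 (49.3 CPM with control siRNA and 16.9 CPM untreated, 1.54) and Synpo2 (11.7 CPM with control siRNA and 4.45 CPM untreated, 1.39) were also higher. Tpm1 had 1239 CPM with control siRNA and 619 CPM untreated and lay at the threshold (log2 ratio 1.0010), and Tpm2 (0.71) and Cald1 (0.66) lay under it. Tagln, which encodes SM22, had only 5.42 CPM with control siRNA and 1.74 CPM in untreated CAFs (log2 ratio 1.63), and 67.9% of its exon bases are overlapped by another gene, so its counts may not measure its level. Mylk, the kinase that activates this myosin, was level (log2 ratio 0.07).

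SRF and actin cytoskeleton genes were all above 0, 22 of 22, but by less, with a median of 0.62 and 2 past 2-fold. Those were Fhl1, a LIM protein gene, at 176 CPM with control siRNA and 48.8 CPM in untreated CAFs (log2 ratio 1.85, 95% interval 1.76 to 1.95), and Csrp1 at 429.7 CPM with control siRNA and 215 CPM in untreated CAFs (log2 ratio 1.0003). Srf itself had a log2 ratio of 0.87. The cytoplasmic actins Actb and Actg1 had 5997 CPM with control siRNA and 4429 CPM untreated (log2 ratio 0.44) and 3538 CPM with control siRNA and 2848 CPM untreated (log2 ratio 0.31). Filamin A, Flna, had 4398 CPM with control siRNA and 2906 CPM untreated (log2 ratio 0.60) and the non-muscle myosin Myh9 had 3416 CPM with control siRNA and 2161 CPM untreated (log2 ratio 0.66). Among targets of YAP and TEAD, which respond to spreading and stiffness, Ctgf had 1859 CPM after control siRNA, 2245 CPM after Fn1 siRNA and 290.4 CPM in untreated CAFs (log2 ratio 2.68, 95% interval 2.64 to 2.71) and Cyr61 1915 CPM after control siRNA, 1952 CPM after Fn1 siRNA and 569 CPM in untreated CAFs (log2 ratio 1.75, 95% interval 1.72 to 1.78). Other genes overlap 23.2% of the exon bases of Ctgf. Ankrd1 had 319 CPM with control siRNA and 126 CPM in untreated CAFs (log2 ratio 1.34), Crim1 269 CPM with control siRNA and 121 CPM untreated (log2 ratio 1.15) and Gadd45a 19.7 CPM with control siRNA and 8.51 CPM untreated (log2 ratio 1.21). The coactivator genes Yap1 (0.10) and Wwtr1 (0.16) and the target Axl (1668 CPM with control siRNA and 1339.6 CPM untreated, log2 ratio 0.32) did not pass, and 5 of 23 measured members did, with a median of 0.41.

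Among targets of TGF-beta, the main cytokine of myofibroblast formation, higher genes outnumbered lower ones. Smad7, the inhibitory Smad, had 87.9 CPM with control siRNA and 27.6 CPM in untreated CAFs (log2 ratio 1.67, 95% interval 1.55 to 1.80), and Lrrc15, a CAF marker, 34.4 CPM with control siRNA and 13.9 CPM in untreated CAFs (log2 ratio 1.31, 95% interval 1.13 to 1.496). Id1 (106 CPM with control siRNA and 48.6 CPM untreated, log2 ratio 1.13) and Skil (93.1 CPM with control siRNA and 43.8 CPM untreated, 1.09) were also higher. Tgfbi, a secreted matrix protein named for its induction, was lower at 40.0 CPM with control siRNA and 89.5 CPM in untreated CAFs (log2 ratio -1.16, 95% interval -1.27 to -1.05). Fn1, itself such a target, had 4778 CPM with control siRNA and 4129.5 CPM untreated and a log2 ratio of 0.21. Of 20 measured targets 6 were higher and 1 lower, with a median of 0.68. Of 15 ligands, receptors, Smads and latent binding genes 2 were higher, Lrrc32, which holds latent TGF-beta at the cell surface, at 205 CPM with control siRNA and 76.6 CPM in untreated CAFs (log2 ratio 1.42, 95% interval 1.34 to 1.497), and Ltbp2 at 339.7 CPM with control siRNA and 147 CPM in untreated CAFs (log2 ratio 1.20, 95% interval 1.15 to 1.26). The ligand gene Tgfb1 (log2 ratio 0.36) and the receptor genes Tgfbr1 (0.30) and Tgfbr2 (-0.54) did not pass.

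Inhibitors of matrix breakdown were among the genes with the largest ratios. Timp3, a matrix-bound metalloproteinase inhibitor, had 139.8 CPM after control siRNA, 153 CPM after Fn1 siRNA and 28.2 CPM in untreated CAFs (log2 ratio 2.31, 95% interval 2.19 to 2.43). Other genes overlap 21.3% of the exon bases of Timp3. Timp1 had 393 CPM with control siRNA and 237 CPM untreated (log2 ratio 0.73) and Timp2 733 CPM with control siRNA and 686 CPM untreated (log2 ratio 0.09). The serpin gene Serpinb2 had 25.8 CPM after control siRNA, 15.1 CPM after Fn1 siRNA and 4.32 CPM in untreated CAFs (log2 ratio 2.57, 95% interval 2.27 to 2.89) and Serpine2 6.54 CPM with control siRNA and 2.92 CPM untreated (log2 ratio 1.16). Plaur, the urokinase receptor gene, had 241 CPM with control siRNA and 73.9 CPM in untreated CAFs (log2 ratio 1.70, 95% interval 1.63 to 1.78), and urokinase itself, Plau, a log2 ratio of 0.87. Plat, tissue plasminogen activator, was lower at 96.7 CPM with control siRNA and 207 CPM in untreated CAFs (log2 ratio -1.10, 95% interval -1.17 to -1.03). The list held 5 higher and 1 lower of 10, with a median of 1.01 that became 0.87 among members at 10 CPM or more. Of 10 measured metalloproteinases, 2 were higher, Mmp9 and Mmp17 (14.3 CPM with control siRNA and 6.73 CPM untreated, log2 ratio 1.09), and Mmp14 and Mmp2 had log2 ratios of -0.05 and -0.13.

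Most collagens stayed within 2-fold of their untreated level, with 6.90% higher and 3.45% lower beside 2.98% and 2.74% of all genes. Col1a1 had 13805 CPM with control siRNA and 10768 CPM in untreated CAFs (log2 ratio 0.36), Col1a2 7480.1 CPM with control siRNA and 7138 CPM untreated (log2 ratio 0.07) and Col3a1 2677 CPM with control siRNA and 2632 CPM untreated (log2 ratio 0.02). Col18a1, a basement membrane collagen, was higher at 325 CPM with control siRNA and 145 CPM in untreated CAFs (log2 ratio 1.16, 95% interval 1.11 to 1.22). Col11a1, which nucleates fibrils, was lower at 20.7 CPM with control siRNA and 43.4 CPM in untreated CAFs (log2 ratio -1.07, 95% interval -1.22 to -0.92). Col20a1, at 1.38 CPM with control siRNA and 0.635 CPM untreated, was the other one beyond 2-fold (log2 ratio 1.10), of 29 measured with a median of 0.24. Among glycoproteins and proteoglycans, thrombospondin 1, Thbs1, had 3159 CPM after control siRNA, 3429.7 CPM after Fn1 siRNA and 1318 CPM in untreated CAFs (log2 ratio 1.26, 95% interval 1.24 to 1.28), the hyaluronan synthase gene Has2 had 53.8 CPM with control siRNA and 18.9 CPM in untreated CAFs (log2 ratio 1.51, 95% interval 1.35 to 1.67) and fibromodulin, Fmod, 11.1 CPM with control siRNA and 2.67 CPM in untreated CAFs (log2 ratio 2.05, 95% interval 1.66 to 2.47). Mfap5, of microfibrils, had 22.8 CPM with control siRNA and 10.1 CPM untreated (log2 ratio 1.18). Lower were osteopontin, Spp1, at 189 CPM after control siRNA, 113 CPM after Fn1 siRNA and 448 CPM in untreated CAFs (log2 ratio -1.24, 95% interval -1.29 to -1.20), versican, Vcan, at 192 CPM with control siRNA and 391.66 CPM in untreated CAFs (log2 ratio -1.03), Efemp1 at 160.3 CPM with control siRNA and 331 CPM in untreated CAFs (log2 ratio -1.05), asporin, Aspn, at 84.5 CPM with control siRNA and 177 CPM in untreated CAFs (log2 ratio -1.07) and osteomodulin, Omd, at 5.62 CPM with control siRNA and 17.9 CPM in untreated CAFs (log2 ratio -1.67). Thbs2 was close behind at 867 CPM with control siRNA and 1697 CPM untreated (log2 ratio -0.97). The matrix list thus held 4 higher and 5 lower of 35, with a median of -0.17 that was 0.09 with the Fn1 siRNA library in its place.

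Of enzymes that process and crosslink collagen, 18 of 20 were within 2-fold, beside 5.71% of all genes beyond it. Transglutaminase 2, Tgm2, was higher at 56.0 CPM with control siRNA and 17.5 CPM in untreated CAFs (log2 ratio 1.68, 95% interval 1.52 to 1.84), with 21.8% of its exon bases overlapped by other genes, and the procollagen peptidase gene Adamts3 was lower at 1.65 CPM with control siRNA and 3.56 CPM untreated (log2 ratio -1.10). Lysyl oxidase, Lox, had 2330.4 CPM with control siRNA and 2539.6 CPM in untreated CAFs (log2 ratio -0.12), and the collagen chaperone gene Serpinh1 3019.5 CPM with control siRNA and 2608 CPM untreated (log2 ratio 0.21). Tll1, an astacin protease related to the procollagen peptidase Bmp1, was higher at 38.4 CPM with control siRNA and 7.24 CPM in untreated CAFs (log2 ratio 2.40, 95% interval 2.17 to 2.65), against a log2 ratio of 0.27 for Bmp1. Of the fibronectin receptor's chains, Itga5 had 1210.0 CPM with control siRNA and 571 CPM in untreated CAFs (log2 ratio 1.08, 95% interval 1.05 to 1.11) and Itgb1 1942 CPM with control siRNA and 1353 CPM in untreated CAFs (log2 ratio 0.52). Itga2, a collagen receptor chain, was higher at 1.65 CPM with control siRNA and 0.762 CPM untreated (log2 ratio 1.10) and Itgb8 lower at 0.846 CPM with control siRNA and 2.84 CPM untreated (log2 ratio -1.72), leaving 15 of 18 measured integrins within 2-fold.

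The lower genes of the Wnt pathway were all secreted regulators. Sfrp2, a decoy that binds Wnt ligands, had 107 CPM after control siRNA, 99.5 CPM after Fn1 siRNA and 414 CPM in untreated CAFs (log2 ratio -1.95, 95% interval -2.01 to -1.89). Its relative Sfrp1 had 6.73 CPM with control siRNA and 15.2 CPM in untreated CAFs (log2 ratio -1.17, 95% interval -1.44 to -0.91). Dkk2, which acts on the coreceptor, had 14.8 CPM with control siRNA and 38.3 CPM in untreated CAFs (log2 ratio -1.37, 95% interval -1.55 to -1.20). The R-spondin genes, whose products raise Wnt signals, were lower as well, Rspo2 at 16.3 CPM with control siRNA and 38.1 CPM in untreated CAFs (log2 ratio -1.22, 95% interval -1.39 to -1.06) and Rspo3 at 0.769 CPM with control siRNA and 1.86 CPM untreated (log2 ratio -1.25). Higher were the Wnt transcription factor Lef1 at 4.69 CPM with control siRNA and 1.40 CPM in untreated CAFs (log2 ratio 1.73, 95% interval 1.18 to 2.35) and the ligand Wnt11 at 2.19 CPM with control siRNA and 0.296 CPM untreated (log2 ratio 2.80). Wnt5a, by contrast, was level at 37.2 CPM with control siRNA and 31.3 CPM untreated (log2 ratio 0.25), and the list held 2 higher and 5 lower of 20, with a median of -0.33.

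Read as CAF states, the myCAF list held 9 higher and 1 lower of 19 measured, with a median of 0.73. The iCAF list held 8 higher and 2 lower of 19, with a median of 0.24. Over all genes, 2.98% were higher and 2.74% lower. The higher myCAF markers were Actg2, Ctgf, Inhba, Acta2, Tagln, Myl9, Lrrc15, Cnn1 and Tpm1, and the lower one was Col11a1. The higher iCAF markers were Cxcl1, Lif, C4b, C3, Has2, Il6, Cxcl5 and Ccl2. The lower ones were Efemp1 and Ly6c1, at 16.5 CPM with control siRNA and 46.8 CPM in untreated CAFs for Ly6c1 (log2 ratio -1.498). Ly6c1 belongs to a cluster of near-identical genes. Pdgfra, a receptor used as an iCAF marker, had a log2 ratio of -0.89 and stayed within 2-fold. Genes that mark fibroblasts of any state were present. All 12 measured ones were within 2-fold, beside 5.71% of all genes beyond it. Vim had 5115 CPM with control siRNA and 5424 CPM in untreated CAFs (log2 ratio -0.08). Sparc had 4367 CPM with control siRNA and 3980.4 CPM untreated (log2 ratio 0.13). Lum and Fap, of the same list, stayed under 1 CPM in both libraries. In a bulk library, a change in the number of cells in a state and a change in RNA per cell cannot be told apart.

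Several defining markers of leukocytes, epithelium and endothelium had 0 counts in both libraries, while other genes of these lists and some pericyte markers were counted. Among macrophage and leukocyte markers 3 of 18 were measured, and the defining Ptprc, Adgre1, Itgam, C1qa and Tyrobp had 0 counts in both libraries. The list summed to 14.3 CPM with control siRNA and 19.1 CPM in untreated CAFs. Most of it was Cd14 (8.81 CPM with control siRNA and 15.5 CPM untreated, log2 ratio -0.82). The other measured members went up within 2-fold, Cd68 with a log2 ratio of 0.99 and Csf1r with 0.69. Epithelial markers summed to 12.6 CPM with control siRNA and 10.5 CPM untreated, almost all Krt19 (12.3 CPM with control siRNA and 10.0 CPM untreated), with Cdh1 and Krt8 at 0 counts and Epcam at 2 counts with control siRNA and 3 untreated. Endothelial markers summed to 183 CPM with control siRNA and 139.8 CPM untreated. Of this, Eng, which fibroblasts also express, had 179 CPM with control siRNA and 134 CPM untreated (log2 ratio 0.42). The other measured members, Kdr and Tek, each had a log2 ratio of -0.60, and Tie1, Emcn and Cldn5 had 0 counts. Schwann cell markers reached 1 CPM in neither library. Of 4 measured pericyte markers, 2 were higher, Mcam at 42.6 CPM after control siRNA, 42.9 CPM after Fn1 siRNA and 10.968 CPM in untreated CAFs (log2 ratio 1.95, 95% interval 1.76 to 2.16) and Cspg4 at 3.54 CPM with control siRNA and 0.932 CPM untreated (log2 ratio 1.90). Pdgfrb was level (log2 ratio 0.03) and the defining Kcnj8 and Abcc9 had 0 counts. The part of pericyte-like cells in the contractile genes was not tested. Acta1, skeletal muscle actin, was higher at 34.9 CPM with control siRNA and 6.44 CPM in untreated CAFs (log2 ratio 2.43, 95% interval 2.19 to 2.69). Myog, Actc1 and Ckm had 0 counts in both libraries and Myod1 had 1 count in each.

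Genes of cholesterol synthesis were lower at several steps of the route. Of 27 genes 6 were over 2-fold lower and 0 higher, 26 lay below 0, and the median was -0.74 beside -0.01 over all genes. Acat2, which starts the route from acetyl-CoA, had 68.3 CPM after control siRNA, 73.4 CPM after Fn1 siRNA and 159.8 CPM in untreated CAFs (log2 ratio -1.23, 95% interval -1.31 to -1.14). In the mevalonate steps, Hmgcs1 had 153 CPM with control siRNA and 261 CPM untreated (log2 ratio -0.77), Mvk 39.5 CPM with control siRNA and 77.0 CPM untreated (log2 ratio -0.96) and Pmvk 31.7 CPM with control siRNA and 71.0 CPM untreated (log2 ratio -1.16, 95% interval -1.29 to -1.04). Fdps, which makes farnesyl pyrophosphate, had 6.31 CPM with control siRNA and 14.2 CPM untreated (log2 ratio -1.17), with 26.7% of its exon bases overlapped by another gene. In the sterol steps, Nsdhl, a sterol demethylation enzyme, had 51.1 CPM after control siRNA, 54.4 CPM after Fn1 siRNA and 116 CPM in untreated CAFs (log2 ratio -1.19, 95% interval -1.28 to -1.09), the reductase gene Tm7sf2 had 7.35 CPM with control siRNA and 15.1 CPM in untreated CAFs (log2 ratio -1.04) and Lss 82.5 CPM with control siRNA and 149 CPM untreated (log2 ratio -0.85). Cyp51 (-0.51) and Sqle (-0.38) stayed within 2-fold. The regulator Srebf2 was within 2-fold as well, at 484 CPM with control siRNA and 541 CPM untreated (log2 ratio -0.16).

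Fatty acid genes were lower at a few steps, with 3 of 19 measured lower, 0 higher and a median of -0.37. Acss2, which makes acetyl-CoA from acetate, had 12.2 CPM with control siRNA and 35.1 CPM in untreated CAFs (log2 ratio -1.52, 95% interval -1.71 to -1.33). Elovl6, an elongase, had 57.5 CPM with control siRNA and 118 CPM in untreated CAFs (log2 ratio -1.04, 95% interval -1.13 to -0.95). The desaturase gene Scd2 had 1141 CPM after control siRNA, 1032 CPM after Fn1 siRNA and 2294 CPM in untreated CAFs and lay close to the threshold (log2 ratio -1.01, 95% interval -1.03 to -0.99). Acly (344 CPM with control siRNA and 566 CPM untreated, log2 ratio -0.72), Fads1 (342 CPM with control siRNA and 558 CPM untreated, -0.71) and Fasn (565 CPM with control siRNA and 779 CPM untreated, -0.46) stayed within 2-fold. In the genes of cholesterol efflux, Abca1 had 53.5 CPM with control siRNA and 81.4 CPM untreated (log2 ratio -0.61). Apoe, a lipid carrier, was higher at 5.08 CPM with control siRNA and 1.86 CPM in untreated CAFs (log2 ratio 1.44, 95% interval 0.94 to 1.97). Among adipogenic genes the fatty acid carrier Fabp4 had 49.0 CPM with control siRNA and 119 CPM in untreated CAFs (log2 ratio -1.28, 95% interval -1.38 to -1.19) and the lipase gene Lipe 4.31 CPM with control siRNA and 10.8 CPM in untreated CAFs (log2 ratio -1.32), while Pparg, the adipogenic regulator, had a log2 ratio of 0.94 and lipoprotein lipase, Lpl, -0.51.

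**Figure D4:**
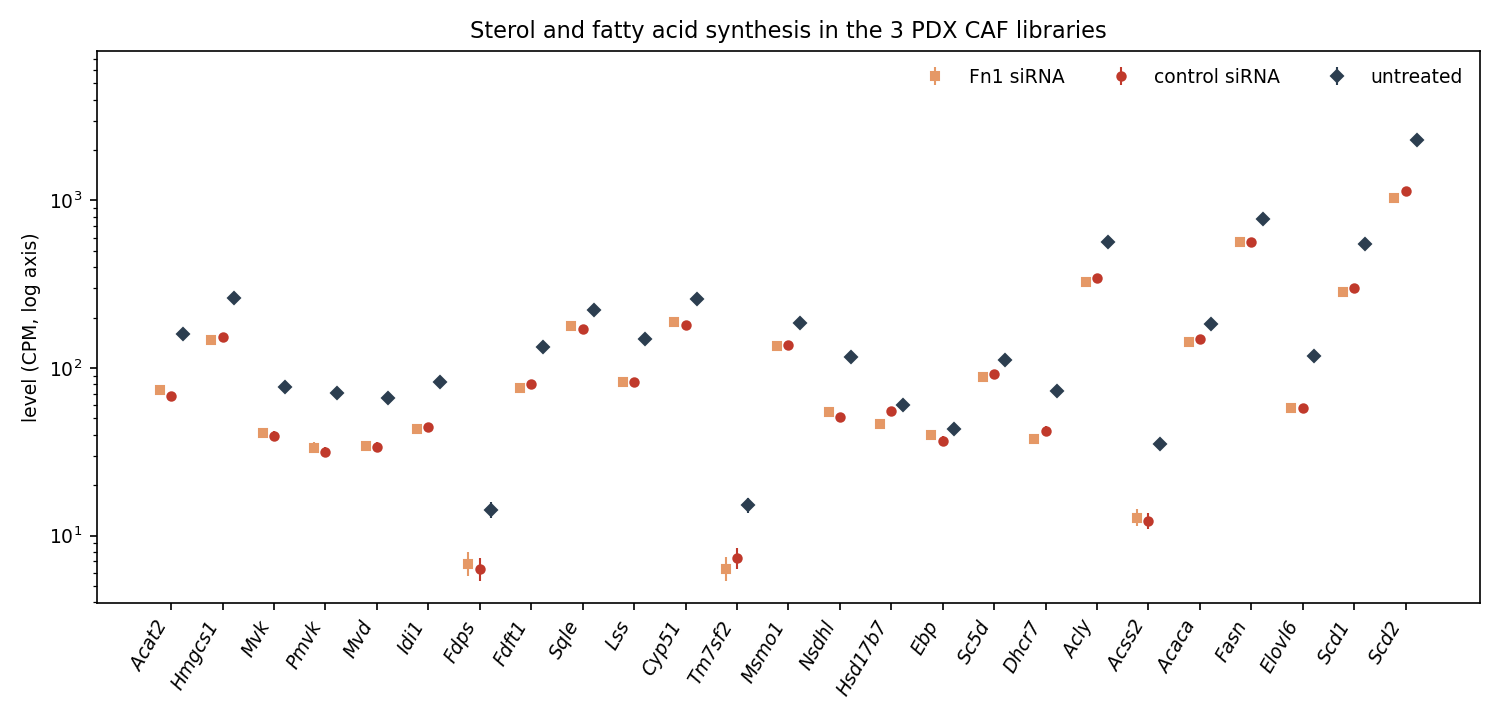
Levels in CPM (y axis, log scale) of 25 genes of cholesterol and fatty acid synthesis, in pathway order, in the Fn1 siRNA, control siRNA and untreated PDX CAF libraries, 1 library each, with Poisson 95% intervals. Both transfected libraries lie below the untreated one for each gene, and of the genes shown the control siRNA ratio is farthest from 0 for Acss2 (-1.52) and Acat2 (-1.23).

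Targets of p53, the factor that answers DNA damage and other stress, held 6 of 24 measured over 2-fold higher and 0 lower, with a median of 0.55. Plk2, a stress-induced kinase gene, had 291 CPM with control siRNA and 107 CPM in untreated CAFs (log2 ratio 1.44, 95% interval 1.38 to 1.51), and Gdf15, a secreted stress hormone, 71.9 CPM after control siRNA, 92.1 CPM after Fn1 siRNA and 26.8 CPM in untreated CAFs (log2 ratio 1.42, 95% interval 1.29 to 1.55). Pmaip1, which encodes the death factor Noxa, had 6.35 CPM with control siRNA and 2.07 CPM untreated (log2 ratio 1.60), Plk3 76.4 CPM with control siRNA and 34.6 CPM untreated (1.14) and Eda2r 31.4 CPM with control siRNA and 14.6 CPM untreated (1.10). Cdkn1a, which encodes the cell cycle inhibitor p21, had 195.29 CPM with control siRNA and 110.2 CPM in untreated CAFs and stayed within 2-fold (log2 ratio 0.83), as did Ccng1 (0.81) and Mdm2 (0.69). SV40 large T antigen, which these cells carry, binds p53, and Trp53 itself was level at 215 CPM with control siRNA and 211 CPM untreated (log2 ratio 0.03). Btg2, named above, also belongs to this list.

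Other stress lists had medians near 0, at 0.08 for the unfolded protein and integrated stress responses, 0.02 for heat shock and 0.08 for antioxidant genes. Some of their genes passed 2-fold. Of 19 measured antioxidant genes 10.5% were higher and 5.26% lower, beside 2.98% and 2.74% of all genes. In the unfolded protein and integrated stress responses 2 of 25 genes were higher, Atf3 and the phosphatase subunit gene Ppp1r15a (81.5 CPM with control siRNA and 31.2 CPM in untreated CAFs, log2 ratio 1.38, 95% interval 1.26 to 1.51). The chaperone gene Hspa5 had 1366 CPM with control siRNA and 1490.4 CPM untreated (log2 ratio -0.13). Ddit3, which encodes CHOP, had 0.00. All 14 heat shock genes were within 2-fold, beside 5.71% of all genes beyond it. Hsp90ab1 had 2851 CPM with control siRNA and 2820.0 CPM untreated (log2 ratio 0.02). Among antioxidant genes the quinone reductase gene Nqo1 had 118 CPM with control siRNA and 52.2 CPM in untreated CAFs (log2 ratio 1.18, 95% interval 1.08 to 1.27) and Gsta4 83.0 CPM with control siRNA and 37.7 CPM in untreated CAFs (log2 ratio 1.14, 95% interval 1.02 to 1.25). Txnrd1 had 628 CPM with control siRNA and 332 CPM untreated (log2 ratio 0.92), and the metallothionein gene Mt1 lay at the lower threshold with 39.0 CPM with control siRNA and 78.0 CPM untreated (log2 ratio -1.0004). The glucocorticoid-induced kinase gene Sgk1 had 341 CPM with control siRNA and 167 CPM in untreated CAFs (log2 ratio 1.03, 95% interval 0.97 to 1.08). Fkbp5, a closer readout of that receptor, was level at 79.8 CPM with control siRNA and 82.6 CPM untreated (log2 ratio -0.05). In the circadian clock, Ciart was the only one of 16 measured genes beyond 2-fold (10.4 CPM with control siRNA and 4.95 CPM untreated, log2 ratio 1.06).

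Proliferation genes stayed within 2-fold, all 36 of them, as did most genes (5.71% of all lay beyond it). Their median was -0.13. Mki67 had 293 CPM after control siRNA, 273 CPM after Fn1 siRNA and 383 CPM in untreated CAFs (log2 ratio -0.39), Top2a 384 CPM with control siRNA and 464 CPM untreated (log2 ratio -0.27) and the replication licensing gene Mcm2 312 CPM with control siRNA and 297 CPM untreated (log2 ratio 0.07). The cyclin D gene Ccnd1 was level at 181 CPM with control siRNA and 186 CPM untreated (log2 ratio -0.04). The inhibitor gene Cdkn1c was lower at 1.54 CPM with control siRNA and 3.47 CPM untreated (log2 ratio -1.16). Glycolysis and hypoxia genes had a median of -0.28, with Ldha at 1088 CPM with control siRNA and 1519 CPM untreated (log2 ratio -0.48) and Pkm at 2577 CPM with control siRNA and 3137 CPM untreated (log2 ratio -0.28). Nuclear genes of oxidative phosphorylation had a median of -0.15 over 86 genes, and mitochondrially encoded protein genes 0.11 over 12. The first of these lists held 1 gene beyond 2-fold, the muscle form Cox6a2 at 2.27 CPM with control siRNA and 0.551 CPM untreated (log2 ratio 2.00). Cytosolic ribosomal protein genes had a median of -0.05 over 81, and Rpl30 alone passed 2-fold (62.5 CPM with control siRNA and 15.4 CPM untreated, log2 ratio 2.02). Its counts were low for this list, which summed to 36302 CPM with control siRNA and 38110 CPM untreated. How reads shared between genes were assigned is not known, so its level is uncertain.

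Several genes with the largest ratios belong to none of these groups. Foxs1, a forkhead factor gene, had 14.8 CPM after control siRNA, 14.9 CPM after Fn1 siRNA and 1.91 CPM in untreated CAFs (log2 ratio 2.94, 95% interval 2.51 to 3.43). Rgs16, which limits G protein signals, had 53.007 CPM with control siRNA and 8.38 CPM in untreated CAFs (log2 ratio 2.66, 95% interval 2.44 to 2.88), and Lims2, a gene of integrin adhesions, 13.7 CPM with control siRNA and 2.24 CPM in untreated CAFs (log2 ratio 2.60, 95% interval 2.19 to 3.05). Nipal1, a magnesium transporter gene, had 22.2 CPM with control siRNA and 5.38 CPM in untreated CAFs (log2 ratio 2.04), and Acsbg1, an acyl-CoA synthetase gene, 18.5 CPM with control siRNA and 4.57 CPM in untreated CAFs (log2 ratio 2.01). Among the lower genes, Igfbp5, a binding protein for insulin-like growth factors, had 19.8 CPM after control siRNA, 20.002 CPM after Fn1 siRNA and 83.5 CPM in untreated CAFs (log2 ratio -2.08, 95% interval -2.22 to -1.94). Igsf10 had 6.77 CPM with control siRNA and 34.9 CPM in untreated CAFs (log2 ratio -2.36, 95% interval -2.61 to -2.13), the zinc finger gene Zfp467 3.0004 CPM with control siRNA and 13.2 CPM in untreated CAFs (log2 ratio -2.13, 95% interval -2.52 to -1.78) and Rab3il1 4.65 CPM with control siRNA and 20.030 CPM in untreated CAFs (log2 ratio -2.10, 95% interval -2.41 to -1.81). The glutathione transferase gene Mgst3 had 4.62 CPM with control siRNA and 18.6 CPM untreated (log2 ratio -2.01), Ndrg2 5.31 CPM with control siRNA and 20.8 CPM untreated (-1.97), the folate enzyme gene Aldh1l1 7.19 CPM with control siRNA and 27.4 CPM untreated (-1.92) and the hormone gene Stc1 6.50 CPM with control siRNA and 22.2 CPM untreated (-1.77).

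Lower too were the angiotensinogen gene Agt at 13.0 CPM with control siRNA and 39.5 CPM in untreated CAFs (log2 ratio -1.61, 95% interval -1.79 to -1.43) and Mme, which encodes the peptidase neprilysin, at 26.1 CPM with control siRNA and 81.1 CPM in untreated CAFs (log2 ratio -1.63, 95% interval -1.76 to -1.51). Lrrc17 had 15.5 CPM with control siRNA and 51.7 CPM untreated (log2 ratio -1.74), Cpxm1 4.31 CPM with control siRNA and 13.3 CPM untreated (-1.62), Ndrg4 4.50 CPM with control siRNA and 13.6 CPM untreated (-1.59) and the potassium channel subunit gene Kcne4 3.96 CPM with control siRNA and 11.6 CPM untreated (-1.55). Cd34, a surface protein of resting fibroblasts and named after its values were seen, had 44.2 CPM after control siRNA, 49.3 CPM after Fn1 siRNA and 117 CPM in untreated CAFs (log2 ratio -1.40). Srp54b had the lowest ratio of the protein-coding genes at 10 CPM or more, 2.65 CPM after control siRNA, 5.36 CPM after Fn1 siRNA and 15.9 CPM in untreated CAFs (log2 ratio -2.57, 95% interval -2.97 to -2.21). It has near-identical copies, and the 2 transfected libraries also differed in it, so its level is uncertain. Gapdh, a glycolytic enzyme gene, also has many processed copies in the genome, so its level is uncertain, although the transfected libraries were close. It had 27.4 CPM after control siRNA, 25.003 CPM after Fn1 siRNA and 105 CPM in untreated CAFs (log2 ratio -1.94).

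The Fn1 siRNA library, set against the same untreated library, gave 431 higher genes (3.29%) and 398 lower ones (3.03%) beyond 2-fold, of 13114 compared. Both comparisons share the untreated library, so a property of that library enters both. Among the 5 marker genes, the log2 ratio over untreated was 3.90 with control siRNA and 4.27 with Fn1 siRNA for Cxcl1. The ratios were 2.29 with control siRNA and 2.30 with Fn1 siRNA for Ptgs2, and 1.75 with control siRNA and 1.67 with Fn1 siRNA for Tnfaip3. They were 1.68 with control siRNA and 1.91 with Fn1 siRNA for Acta2, and -1.19 with control siRNA and -1.10 with Fn1 siRNA for Nsdhl. Between the transfected libraries themselves, 0.834% of 12943 genes lay beyond 2-fold either way, against 5.71% between control siRNA and untreated CAFs. Serpinb2 and Spp1 were among the named genes in which the transfected libraries differed visibly, with log2 ratios over untreated of 2.57 with control siRNA and 1.80 with Fn1 siRNA for Serpinb2. For Spp1 they were -1.24 with control siRNA and -1.99 with Fn1 siRNA.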

How the data were processed

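RNA-seq counts per gene were deposited by the authors as 1 table of 5 libraries, raw and unnormalized, with totals of 22961620 to 26596351 counts. The submitters' processing notes name the genome build mm10. The sources used here give neither the aligner and counter nor the annotation, and do not say whether counting used strand. Of the rows, 104 had no Ensembl ID (0.0551% of counts with control siRNA, 0.0525% in untreated CAFs) and were kept in totals and ratios. Columns were matched to samples by their labels, and every library was a single culture.

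Ratios were scaled by trimmed means (TMM, edgeR 4.0.16 in R 4.3.3) within the pair, with 0.5 counts added, for genes at 1 CPM or more in either library. CPM levels were scaled by TMM over all 5 libraries. Intervals are exact conditional binomial (95%, scipy 1.17.1), and cover counting error only. With 1 library per condition no test was run, the 2-fold limit is descriptive, and the spread between cultures is unknown. Gene coordinates and exon overlap came from GENCODE M21 and promoters from RefSeq.

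Genes named are the 5 markers, the 20 protein-coding genes with the largest ratios in each direction at 10 CPM or more (leaving out predicted and ribosomal protein genes), list members beyond 2-fold or among the 4 most counted of a list, defining markers of other cells, Fn1, Myh9 and sex-linked genes. Others named were chosen after their values were seen. Some genes that the rule names are not reported here, though list counts include them. The members and lists were chosen with earlier results of these data known. Alternatives were 3 other scalings (upper quartile, library totals and the size factors of DESeq2 1.42.0), 5 counts added in place of 0.5, a minimum of 10 CPM or none, only protein-coding genes, an interval entirely beyond 2-fold, and the Fn1 siRNA library in place of the control siRNA library. The myosin IIA knockout and Cre- libraries set only the common CPM scale.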

Additional observations from a re-analysis of the deposited data

How the results depend on the processing

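The counts of 391 higher and 359 lower genes moved most with the filter. They were 3259 and 3002 without a filter, 145 and 114 at 10 CPM or more, and 172 and 111 for an interval entirely beyond 2-fold. Under the other alternatives they stayed within 1.5 times, at 413 and 337 with DESeq2 size factors, 321 and 457 with library totals, 389 and 362 with upper-quartile scaling, 334 and 291 with 5 counts added, 280 and 305 among protein-coding genes, and 431 and 398 with the Fn1 siRNA library. None of the 167 named genes beyond 2-fold changed sign under any alternative that held it, while 3 came within 2-fold with DESeq2 size factors, 12 with library totals, 2 with upper-quartile scaling, 7 with 5 counts added and 27 with the Fn1 siRNA library. Of 54 list medians, the sign changed for 2 with DESeq2 size factors, 1 with library totals, 3 without a filter, 7 at 10 CPM and 8 with the Fn1 siRNA library, and the median of immediate early genes came to 0.94 with library totals and 0.95 with the Fn1 siRNA library. The median of the TIMP and plasminogen list came to 0.94 with library totals, 0.99 with 5 counts added, 0.87 at 10 CPM, 0.84 with the Fn1 siRNA library and 0.87 without overlapped members. The log2 ratio over all alternatives ranged between 3.83 and 4.27 for Cxcl1, 2.22 and 2.32 for Ptgs2, 1.67 and 1.78 for Tnfaip3, 1.61 and 1.91 for Acta2, and -1.26 and -1.10 for Nsdhl. Leaving out members with 20% or more of their exon bases overlapped, an alternative added after the data were seen, changed the sign of the median of 2 of 54 lists. No paired analysis was possible because each condition has 1 library, and no replicate could be left out. Depth limits low genes: 3 counts are 0.115 CPM with control siRNA and 0.127 CPM in untreated CAFs.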

Other observations

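By type of gene, 20.7% of 164 antisense genes and 13.4% of 187 lincRNA genes lay beyond 2-fold between control siRNA and untreated CAFs, against 4.98% of 11738 protein-coding genes. Antisense genes had a median of 46.5 counts with control siRNA and 35.0 in untreated CAFs, and protein-coding genes 884.5 with control siRNA and 807.5 in untreated CAFs, so low counts go with the larger share. Of 15 snoRNA genes 5 were higher and 0 lower, beside 2.98% higher and 2.74% lower over all genes. Their median counts were low too, 52 with control siRNA and 28 in untreated CAFs. Among genes under 3 CPM on average, 10.6% were higher. By chromosome, the median log2 ratio was -0.10 on the X, -0.06 on chromosome 6 and between -0.04 (chromosomes 7 and 17) and 0.01 on the other autosomes. By exon length, it was -0.05 among the shortest genes (up to 2527 bases) and 0.02 among the longest (over 6585 bases). Beyond 2-fold, the shortest genes held more in both directions, 166 higher and 109 lower, against 51 higher and 69 lower among the longest. Median counts were 296 with control siRNA and 291 in untreated CAFs for the shortest genes. For the longest they were 1204 with control siRNA and 1080 in untreated CAFs, so low counts go with the larger share here too.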
